A study of Mus musculus with 6 samples.

Results

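The genes described here are 40 genes of redox defence in the mouse, listed by symbol for their roles, with no rule on measured values but with earlier results of these data known: the regulators of the antioxidant response, the enzymes that make, recycle and use glutathione, the superoxide dismutases and catalase, the peroxiredoxins, the thioredoxin system and the metallothioneins. All 40 symbols were found among the 56940 Ensembl genes of the count files, and all 40 passed the filter on low counts that left 15407 genes for testing. RNA sequencing was done on lens capsules with the epithelial cells that stay on them after the fiber cells have been taken out, as in cataract surgery. The 72 h group held 3 libraries from capsules collected 72 h after that operation. The 0 h group held 3 libraries from capsules collected at the operation. Each library pooled 5 capsules of one interval.

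The labels give both groups as wildtype C57BL/6, and no age or sex is used here. Per the series design, the second eye of a mouse was operated on 72 h after the first, and both capsules were then taken, so that a 0 h capsule came from an animal whose other eye had been operated on 72 h before. A tag, RUNX_Cre_N, stands in the description of every library and is not explained in those sources. Nothing says which animals stand behind which pool, and a p-value covers only how these pools differed from each other.

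Glutathione is the main small thiol of the cell, and the lens keeps it at a high concentration as a defence against oxidation of its proteins. Cystine enters through the transporter xCT, glutamate-cysteine ligase and glutathione synthetase build the tripeptide, and glutathione reductase returns the oxidised form to the reduced one with NADPH. Peroxiredoxins and glutathione peroxidases remove peroxides, with thioredoxin and glutathione as the sources of electrons. Many of these genes are targets of the transcription factor NRF2 (Nfe2l2), which KEAP1 marks for degradation until oxidants or electrophiles modify it.

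Counts assigned to genes ranged from 8453450 to 8945397 per library at 72 h and from 11338820 to 12432688 at 0 h. Crystallin genes took up 1.41% to 2.88% of these counts at 72 h and 15.9% to 16.8% at 0 h. Mitochondrially encoded genes took up 16.6% to 25.3% at 72 h, highest in replicate 3, and 3.75% to 3.91% at 0 h, and leaving out both sets before scaling gave 9 of the 40 genes higher and 12 lower. Levels are given as CPM, the counts of a gene scaled to a library of common size after adjustment for composition by TMM. The markers of lens epithelium fixed for this work summed to between 1844 and 2236 CPM at 72 h and between 3980 and 4133 CPM at 0 h, with 9 of 11 lower at 72 h and none at 0 counts in either group. Markers of lens fiber cells summed to between 12841 and 22685 CPM at 72 h and between 115544 and 121950 CPM at 0 h, and all 11 of those tested were lower at 72 h. Macrophage and monocyte markers summed to between 226 and 427 CPM at 72 h and between 51.6 and 70.3 CPM at 0 h, with 10 of 14 tested markers higher. Neutrophil markers summed to between 29.2 and 55.8 CPM at 72 h and between 0.931 and 2.05 CPM at 0 h. Of the 12 listed, 4 passed the filter and all 4 were called higher. However, 2 of these 4 had 0 counts at 0 h and could pass the filter only through the 72 h libraries, so that their direction was fixed beforehand. The other 2 could not pass through the 0 h libraries alone either. In 0 h replicate 2 all 12 markers together summed to 0.931 CPM, less than the filter asks of a single gene. The direction of all 4 calls was thus largely fixed beforehand. Ly6g, Mpo, Elane, Ngp and Camp had 0 counts in all 6 libraries. Photoreceptor markers summed to between 67.5 and 185 CPM at 72 h and between 753 and 1857 CPM at 0 h, with 10 of 11 lower. In bulk RNA, fewer cells of a type and less RNA per cell cannot be told apart, and the part of these shifts in the values below was not tested.

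One library stood apart. The 72 h replicate 3 held 5193 CPM of keratin and surface epithelium markers, against 9.72 and 115.3 CPM in 72 h replicates 1 and 2 and 26.8 to 60.4 CPM at 0 h. Results that rest on this library are given with and without it.

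Across the 40 genes, 9 were higher and 12 lower at 72 h, and 19 were not called, with the quasi-likelihood test of edgeR at a Benjamini-Hochberg adjusted p of 0.05 over all tested genes. The 9 include Mt2, which could pass the filter only through the 72 h libraries, so that its direction was fixed beforehand. Over all 15407 tested genes, 38.5% were called, 21.0% higher and 17.5% lower, so that 22.5% of the antioxidant genes were called higher and 30% lower. Among calls of at least 2-fold there were 7 genes in the higher direction, where the share over all tested genes was 13.5%, and 8 genes in the lower direction, where it was 10.4%. The median log2 change was −0.14 over the 40 genes and −0.02 over all tested genes. The median of its absolute size was 1.04 over the 40 genes and 0.61 over all tested genes. In 26 of the 40 genes every 72 h library lay on one side of every 0 h library, which held for 53.5% of all tested genes. Without 72 h replicate 3, 11 genes were higher and 15 lower, where the shares over all tested genes were 21.9% and 19.6%.

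Together the 40 genes took up 2380, 2748 and 2869 CPM at 72 h, against 3760, 3412 and 3662 CPM at 0 h. Of the 2869 CPM in 72 h replicate 3, Gsto1 held 843 CPM and Gsta4 322 CPM, both far above the other 72 h libraries. The transferases summed to 162, 296 and 1288 CPM in 72 h replicates 1 to 3, against 1095, 931 and 1079 CPM at 0 h. The peroxiredoxins summed to 352, 409.9 and 344 CPM at 72 h and to 529, 511 and 514 CPM at 0 h, and the thioredoxin group to 243, 241 and 279 CPM at 72 h and to 149, 139 and 158 CPM at 0 h. Spread between libraries was wider at 72 h: the median coefficient of variation of the 40 genes was 20.9% at 72 h and 10.3% at 0 h, and over all tested genes it was 24.7% at 72 h and 13.8% at 0 h.

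Levels of different genes were set side by side only per kilobase of merged exon. At 72 h the leading gene was Gpx3 at 168 CPM per kilobase, followed by Gsto1 and Gsta4, both through 72 h replicate 3, and then by Gpx1 at 83.1, Gstm1 at 71.9, Prdx5 at 54.4 and Gpx4 at 51.2. At 0 h Gstm1 led at 555 CPM per kilobase, before Gpx3 at 186, Gpx4 at 133, Prdx5 at 71.4 and Gstm2 at 54.7. Over the 72 h libraries the ranges of Gpx1 and Gstm1, of Gstm1 and Prdx5 and of Prdx5 and Gpx4 overlapped, and Gpx3 ranged from 14.3 to 256 CPM per kilobase with replicate 3 lowest, so that this order is not fixed at 72 h. At the low end, Glrx stayed at 0.439 CPM per kilobase at 72 h and 0.216 at 0 h.

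**Figure D1:**
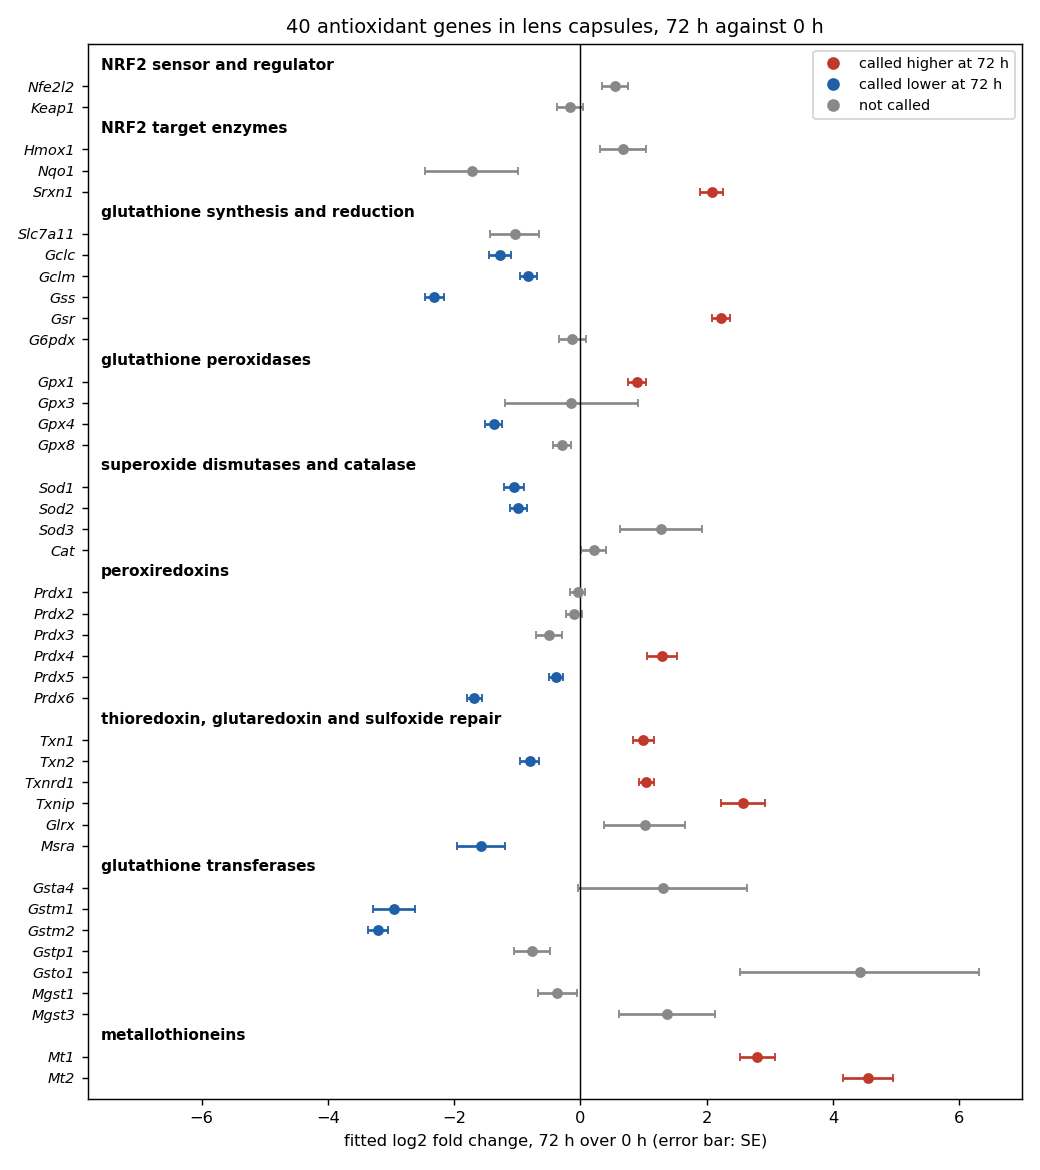
Fitted log2 fold change of each of the 40 genes, 72 h over 0 h, on the horizontal axis, with the standard error as a bar, grouped by role down the page. The 9 genes called higher (red) include both metallothioneins, and the 12 called lower (blue) include both Gstm genes; Gsto1, Gsta4 and Gpx3 carry the widest bars.

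The regulators themselves were measured at moderate levels. Nfe2l2 (ENSMUSG00000015839), which encodes NRF2, had 48.3, 33.7 and 46.6 CPM in the 72 h libraries, against 36.4, 27.7 and 23.8 CPM in the 0 h libraries. The values of the groups overlapped, because 72 h replicate 2 lay below 0 h replicate 1. Its log2 change of 0.55 ± 0.21 (SE, adjusted p = 0.059) missed the threshold, and the call was made without 72 h replicate 2 (0.69, adjusted p = 0.027), with 0 h replicate 1 left out (0.72, adjusted p = 0.041), with DESeq2, with limma voom and with no filter. Keap1 (ENSMUSG00000003308), the adaptor of the ubiquitin ligase that removes NRF2, had 29.98, 28.9 and 47.6 CPM in the 72 h libraries, against 40.8, 43.1 and 35.1 CPM in the 0 h libraries. The groups overlapped, 72 h replicate 3 was the highest of all 6, and the log2 change was −0.16 ± 0.21 (SE, adjusted p = 0.58). The 72 h replicates 1 and 2 lay below all 0 h libraries. Without 72 h replicate 3 the log2 change was −0.42 ± 0.16 (SE, adjusted p = 0.0501), which just missed the threshold. The ratio of Keap1 to Nfe2l2 counts within a library, which no scaling between libraries can move, was 0.621, 0.856 and 1.02 at 72 h and 1.12, 1.56 and 1.47 at 0 h, and those ratios did not overlap.

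The promoter windows of RefSeq (build GRCm38.p6), which run from 250 bases before to 50 bases after an annotated start, were read for the core of the antioxidant response element, the sequence that NRF2 binds with a small MAF protein. The letters searched were TGACNNNGC on both strands. Forms of the element with other letters, and elements outside these windows, were not read, so that a gene without a match may still hold one. Of the 40 genes, 33 had at least 1 window and 9 of these held a match. Per window the share was 9 of 41 (22.0%) for the antioxidant genes and 12.4% over all 32851 windows. A match is a run of letters and not a bound site. The 9 matches are shown because they fall on genes called in both directions: 3 in genes called higher (Mt2, Srxn1 and Txnrd1), 2 in genes called lower (Gclm and Sod1) and 4 in genes not called. Each is given with 10 bases on either side, 5′ to 3′ on the strand of the gene, and the capitals mark the match or its reverse complement.
Mt2 (chr8:94172529-94172557, + strand): aaagggggtgTGACTCAGCgcggggggtg
Srxn1 (chr2:152105542-152105570, + strand): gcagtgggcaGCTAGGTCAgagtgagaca
Txnrd1 (chr10:82859104-82859132, + strand): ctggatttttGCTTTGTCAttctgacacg
Gclm (chr3:122245413-122245441, + strand): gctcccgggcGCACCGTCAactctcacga
Sod1 (chr16:90220696-90220724, + strand): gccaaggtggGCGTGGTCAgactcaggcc
Nfe2l2 (chr2:75704885-75704913, - strand): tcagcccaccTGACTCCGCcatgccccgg
Prdx1 (chr4:116685456-116685484, + strand): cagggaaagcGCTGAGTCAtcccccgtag
G6pdx (chrX:74428919-74428947, - strand): aggcgggtcaGCTCAGTCAaagcacacgc
Mgst1 (chr6:138140461-138140489, + strand): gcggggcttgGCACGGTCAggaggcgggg

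Of 3 enzymes widely used as readouts of NRF2, 1 was called. Sulfiredoxin (Srxn1, ENSMUSG00000032802), which repairs overoxidised peroxiredoxins, had 66.4, 55.3 and 49.8 CPM in the 72 h libraries, against 16.2, 11.6 and 12.9 CPM in the 0 h libraries. All 72 h libraries lay above all 0 h libraries, and the log2 change was 2.08 ± 0.19 (SE, adjusted p = 2.4e-05). Heme oxygenase 1 (Hmox1, ENSMUSG00000005413), which breaks heme down to biliverdin, iron and carbon monoxide, had 48.6, 23.1 and 36.0 CPM in the 72 h libraries, against 12.5, 29.0 and 25.8 CPM in the 0 h libraries. The groups overlapped, with 72 h replicate 2 inside the 0 h range, and the log2 change was 0.68 ± 0.36 (SE, adjusted p = 0.18). NAD(P)H quinone dehydrogenase 1 (Nqo1, ENSMUSG00000003849), a reductase of quinones, had 0.347, 6.24 and 3.42 CPM in the 72 h libraries, against 7.96, 10.2 and 14.9 CPM in the 0 h libraries. Every 72 h library lay below every 0 h library. The 72 h libraries rested on 3, 54 and 28 counts, and the log2 change of −1.72 ± 0.74 (SE, adjusted p = 0.10) missed the threshold. It was called lower without 72 h replicate 2 (−2.56, adjusted p = 0.035), with DESeq2 and with limma voom. The fitted changes of the 3 genes differed in sign, and the promoter window of Srxn1 is printed because it was the one called.

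The window of Srxn1 (RefSeq, GRCm38.p6, chr2:152105274-152105573, + strand) holds the element match shown above, which begins at base 29 counted from the annotated start as base 1, and 2 copies of TGANTCA, the letters of an AP-1 site, whose letters read the same on both strands. TGANTCA was present in 7.81% of all windows. Capitals mark these 3 runs, which do not overlap.
Srxn1 window: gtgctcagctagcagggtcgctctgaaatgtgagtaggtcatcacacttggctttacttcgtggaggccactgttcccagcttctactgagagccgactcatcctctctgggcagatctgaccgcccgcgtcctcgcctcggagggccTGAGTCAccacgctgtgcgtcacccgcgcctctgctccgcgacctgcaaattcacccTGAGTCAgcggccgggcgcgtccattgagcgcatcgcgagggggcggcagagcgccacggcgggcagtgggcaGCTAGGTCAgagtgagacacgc

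Genes of glutathione synthesis fell while the gene that recycles glutathione rose. Gss (ENSMUSG00000027610), the glutathione synthetase of the last step, had 45.0, 56.1 and 37.5 CPM in the 72 h libraries, against 219, 236 and 234 CPM in the 0 h libraries. Its groups lay far apart, and the log2 change was −2.31 ± 0.15 (SE, adjusted p = 2.6e-06). Gclc (ENSMUSG00000032350), the catalytic subunit of glutamate-cysteine ligase and the rate-limiting enzyme of synthesis, had 32.4, 52.4 and 38.9 CPM in the 72 h libraries, against 98.0, 103 and 97.9 CPM in the 0 h libraries. No value overlapped, and the log2 change was −1.27 ± 0.17 (SE, adjusted p = 2.9e-04). Gclm (ENSMUSG00000028124), the modifier subunit of the same ligase, had 48.0, 60.1 and 50.9 CPM in the 72 h libraries, against 101, 88.6 and 91.4 CPM in the 0 h libraries. It was lower in every 72 h library, with a log2 change of −0.82 ± 0.13 (SE, adjusted p = 7.1e-04). The ratio of Gclm to Gclc counts within a library was 1.48, 1.15 and 1.31 at 72 h and 1.03, 0.861 and 0.934 at 0 h, so that Gclc was lower relative to Gclm in every 72 h library.

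Glutathione reductase (Gsr, ENSMUSG00000031584) had 81.7, 71.0 and 69.3 CPM in the 72 h libraries, against 17.1, 16.3 and 14.1 CPM in the 0 h libraries. The 72 h libraries lay close together and above all 0 h libraries, and the log2 change was 2.23 ± 0.15 (SE, adjusted p = 3.7e-06). The ratio of Gsr to Gss counts was 1.81, 1.27 and 1.85 at 72 h, against 0.0783, 0.0689 and 0.0603 at 0 h, a 23.7-fold difference of the means. Slc7a11 (ENSMUSG00000027737), the xCT subunit that imports cystine, had 196, 261 and 89.8 CPM in the 72 h libraries, against 389.5, 364 and 374 CPM in the 0 h libraries. Every 72 h library lay below every 0 h library, with replicate 3 the lowest, and the log2 change of −1.04 ± 0.38 (SE, adjusted p = 0.087) missed the threshold. Without 72 h replicate 3 the change was smaller and called, at −0.71 ± 0.11 (SE, adjusted p = 1.9e-04), and without 72 h replicate 2 it was −1.40 (adjusted p = 0.033). G6pdx (ENSMUSG00000031400), glucose-6-phosphate dehydrogenase, which supplies the NADPH that the reductase uses, had 34.6, 60.8 and 49.6 CPM in the 72 h libraries, against 63.1, 45.9 and 49.5 CPM in the 0 h libraries. The groups overlapped (log2 change −0.13 ± 0.21 SE, adjusted p = 0.67). Exons of Ikbkg, with 2567 counts over all 6 libraries, overlap 13.6% of its exon bases on the opposite strand, and the strand setting of the counting is not known here.

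Among 4 glutathione peroxidases, 1 rose, 1 fell and 2 were not called. Gpx1 (ENSMUSG00000063856), the selenium-containing peroxidase of cytosol and mitochondria, had 115.3, 142 and 102 CPM in the 72 h libraries, against 68.8, 63.5 and 60.8 CPM in the 0 h libraries. The groups did not overlap, and the log2 change was 0.90 ± 0.14 (SE, adjusted p = 6.2e-04). Gpx4 (ENSMUSG00000075706), the selenium-containing peroxidase that reduces lipid hydroperoxides in membranes, had 87.3, 101 and 76.1 CPM in the 72 h libraries, against 265, 204 and 217 CPM in the 0 h libraries. It was lower in every 72 h library, with a log2 change of −1.37 ± 0.14 (SE, adjusted p = 5.1e-05). Of the 50-base words in its transcripts, 34.7% occur also in transcripts of other genes, mostly a pseudogene, so that counting could split or drop its reads. The ratio of Gpx1 to Gpx4 counts was 1.32, 1.40 and 1.35 at 72 h and 0.260, 0.311 and 0.280 at 0 h.

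Gpx3 (ENSMUSG00000018339), a secreted peroxidase, had 423, 465 and 25.9 CPM in the 72 h libraries, against 359, 294 and 358 CPM in the 0 h libraries. The 72 h replicate 3 lay far below all other 5 libraries, and the 2 other 72 h libraries lay above all 0 h libraries. The log2 change was −0.15 ± 1.05 (SE, adjusted p = 0.93) over all libraries and 0.41 ± 0.10 (SE, adjusted p = 0.0049) without that library. Gpx8, a peroxidase of the endoplasmic reticulum, had 28.4, 32.1 and 32.4 CPM in the 72 h libraries, against 37.2, 35.7 and 40.8 CPM in the 0 h libraries. It was lower in every 72 h library by a small margin (log2 change −0.29 ± 0.15 SE, adjusted p = 0.15).

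Of 3 superoxide dismutases, 2 fell and 1 was not called, nor was catalase. Sod1 (ENSMUSG00000022982), the copper-zinc enzyme of the cytosol, had 53.5, 58.5 and 37.9 CPM in the 72 h libraries, against 101, 103 and 107 CPM in the 0 h libraries. Its groups did not overlap, and the log2 change was −1.05 ± 0.16 (SE, adjusted p = 6.1e-04). Sod2, the manganese enzyme of mitochondria, had 29.8, 31.4 and 29.8 CPM in the 72 h libraries, against 57.3, 63.9 and 58.6 CPM in the 0 h libraries. It was lower in every 72 h library, with a log2 change of −0.98 ± 0.13 (SE, adjusted p = 2.6e-04), and 21.0% of its 50-base words are shared with other genes. The ratio of Sod2 to Sod1 counts overlapped between the groups, at 0.627 ± 0.139 at 72 h and 0.581 ± 0.0378 at 0 h (SD, n = 3 each). Sod3, the extracellular enzyme, had 187, 169.7 and 34.6 CPM in the 72 h libraries, against 52.7, 52.1 and 56.9 CPM in the 0 h libraries. The 72 h replicates 1 and 2 lay above all 0 h libraries and replicate 3 below them. The log2 change of 1.28 ± 0.66 (SE, adjusted p = 0.20) was not called over all libraries, and it was 1.74 ± 0.10 (SE, adjusted p = 1.3e-08) without 72 h replicate 3. Catalase (Cat, ENSMUSG00000027187), the peroxisomal enzyme that splits hydrogen peroxide, had 29.98, 49.4 and 43.3 CPM in the 72 h libraries, against 39.4, 35.6 and 31.3 CPM in the 0 h libraries. The groups overlapped (log2 change 0.21 ± 0.20 SE, adjusted p = 0.44).

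Of 6 peroxiredoxins, 1 rose and 2 fell. Prdx6 (ENSMUSG00000026701), which reduces lipid peroxides with glutathione, had 52.0, 58.7 and 45.1 CPM in the 72 h libraries, against 173, 157 and 169 CPM in the 0 h libraries. No library of one group reached those of the other, and the log2 change was −1.68 ± 0.12 (SE, adjusted p = 6.0e-06). Prdx4, the peroxiredoxin of the endoplasmic reticulum, had 25.0, 29.5 and 24.0 CPM in the 72 h libraries, against 10.6, 13.3 and 8.12 CPM in the 0 h libraries. It was higher in every 72 h library, with a log2 change of 1.29 ± 0.24 (SE, adjusted p = 0.0020). Prdx1 (ENSMUSG00000028691), a thioredoxin-dependent peroxiredoxin of the cytosol, had 86.7, 90.9 and 70.8 CPM in the 72 h libraries, against 82.8, 89.9 and 83.5 CPM in the 0 h libraries. Its groups overlapped, and the log2 change was −0.04 ± 0.12 (SE, adjusted p = 0.81). Prdx2, its close relative in the cytosol, was not called either, at 78.8 ± 11.7 CPM at 72 h, against 84.9 ± 0.485 CPM at 0 h (SD, n = 3 each; log2 change −0.11 ± 0.13 SE, adjusted p = 0.54).

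The 2 other peroxiredoxins act in mitochondria, and Prdx5 also elsewhere. Prdx5 was at 116.3 ± 12.4 CPM at 72 h, against 153 ± 7.78 CPM at 0 h (log2 change −0.39 ± 0.11 SE, adjusted p = 0.018), and its call was lost when 72 h replicate 1 was left out (adjusted p = 0.053) and when 0 h replicate 1 (adjusted p = 0.078) or 0 h replicate 3 (adjusted p = 0.058) was. On the opposite strand, exons of Trmt112 (973 counts over all 6 libraries) overlap 19.1% of the exon bases of Prdx5, and exons of Junb (3509 counts) overlap 5.67% of those of Prdx2. Prdx3 was at 12.8 ± 0.563 CPM at 72 h, against 18.1 ± 1.58 CPM at 0 h and not called (log2 change −0.50 ± 0.21 SE, adjusted p = 0.090). The ratio of Prdx6 to Prdx1 counts was 0.599, 0.645 and 0.637 at 72 h, against 2.09, 1.74 and 2.03 at 0 h. Sulfiredoxin, which acts on the peroxiredoxins, was at 0.766, 0.609 and 0.703 counts per count of Prdx1 at 72 h, against 0.195, 0.129 and 0.154 at 0 h.

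In the thioredoxin system the cytosolic pair rose together. Txn1 (ENSMUSG00000028367), the cytosolic thioredoxin, had 45.0, 40.1 and 36.4 CPM in the 72 h libraries, against 18.5, 19.0 and 23.4 CPM in the 0 h libraries. The groups did not overlap, and the log2 change was 1.00 ± 0.17 (SE, adjusted p = 0.0013). Thioredoxin reductase 1 (Txnrd1, ENSMUSG00000020250), the selenoenzyme that reduces it with NADPH, had 126, 116.6 and 117.5 CPM in the 72 h libraries, against 59.0, 51.6 and 63.9 CPM in the 0 h libraries. All 72 h libraries lay above all 0 h libraries, with a log2 change of 1.05 ± 0.12 (SE, adjusted p = 8.8e-05). The ratio of Txnrd1 to Txn1 counts overlapped between the groups, at 2.98 ± 0.220 at 72 h and 2.88 ± 0.267 at 0 h (SD, n = 3 each).

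Txnip (ENSMUSG00000038393), the thioredoxin-interacting protein, which binds thioredoxin and restrains glucose uptake, had 37.7, 47.6 and 97.6 CPM in the 72 h libraries, against 10.03, 10.2 and 10.5 CPM in the 0 h libraries. The 0 h libraries were nearly equal and all 72 h libraries lay above them, with 72 h replicate 3 more than 2-fold above the 2 others. The log2 change was 2.57 ± 0.35 (SE, adjusted p = 6.1e-04), and 2.07 ± 0.19 (SE, adjusted p = 1.1e-06) without 72 h replicate 3. An annotated antisense RNA overlaps 19.4% of the exon bases of Txnip and had 39 counts over all 6 libraries. Txn2, the mitochondrial thioredoxin, was at 25.7 ± 2.82 CPM at 72 h, against 44.9 ± 0.738 CPM at 0 h (log2 change −0.80 ± 0.15 SE, adjusted p = 0.0020). Msra (ENSMUSG00000054733), which repairs oxidised methionine, had 3.24, 7.39 and 3.30 CPM in the 72 h libraries, against 16.1, 12.0 and 13.6 CPM in the 0 h libraries. It was lower in every 72 h library (log2 change −1.58 ± 0.38 SE, adjusted p = 0.0088), on 28, 64 and 27 counts at 72 h. Glutaredoxin (Glrx), which removes glutathione from proteins, was near the limit of detection, at 2.41 ± 0.969 CPM at 72 h, against 1.19 ± 0.302 CPM at 0 h (log2 change 1.02 ± 0.65 SE, adjusted p = 0.25).

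**Figure D2:**
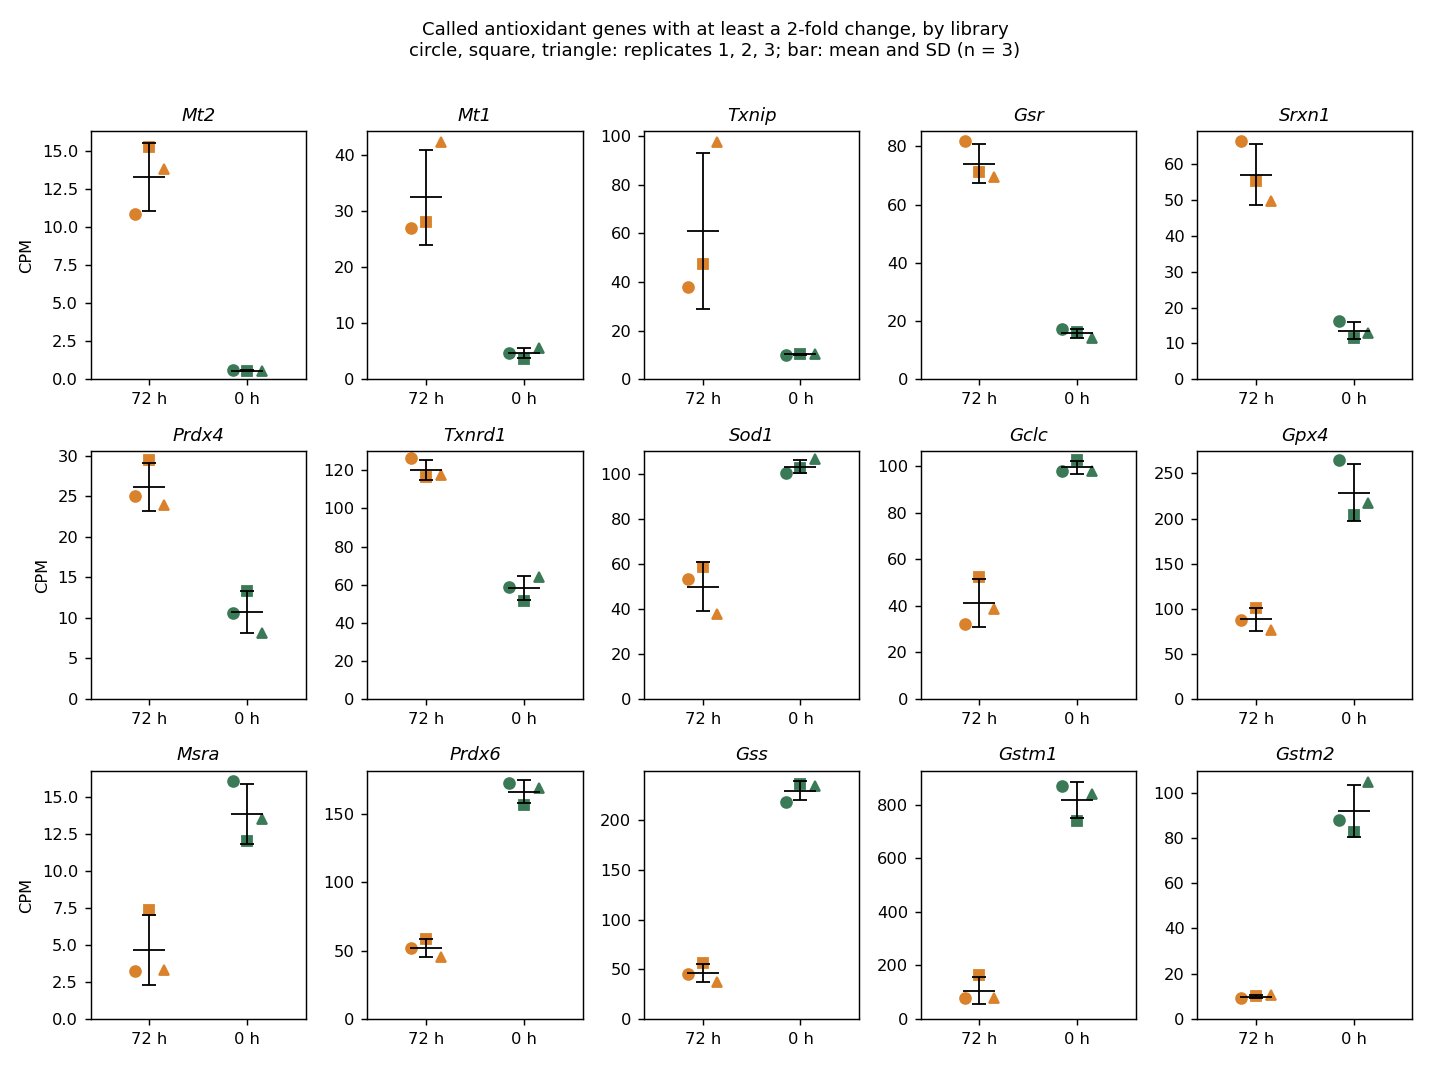
Level in CPM (vertical axes, each from 0) of the 15 called genes with at least a 2-fold change, ordered by log2 change, in the 3 libraries at 72 h (left, orange) and the 3 at 0 h (right, green), with the mean and SD as bars. In every panel the points of the groups do not overlap; in the Txnip panel replicate 3 at 72 h lies above the 2 other 72 h libraries.

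The steepest falls were those of the glutathione transferases of the mu class, which join glutathione to electrophiles. Gstm2 (ENSMUSG00000040562) had 9.03, 9.93 and 10.8 CPM in the 72 h libraries, against 88.0, 82.6 and 105 CPM in the 0 h libraries. The groups lay far apart, and the log2 change was −3.21 ± 0.16 (SE, adjusted p = 5.6e-07). Gstm1 (ENSMUSG00000058135), its neighbour on chromosome 3, had 77.9, 163 and 77.2 CPM in the 72 h libraries, against 869, 741 and 841 CPM in the 0 h libraries. Its 72 h replicate 2 was higher than the 2 others and still far below every 0 h library, and the log2 change was −2.95 ± 0.33 (SE, adjusted p = 9.6e-04). Of the 50-base words of these genes, 18.9% for Gstm1 and 5.65% for Gstm2 occur in other genes, among them each other's relatives, so that their separate values are uncertain to that extent. Per kilobase of exon, Gstm1 held rank 1 of the 40 genes at 0 h, at 555 CPM per kilobase, and rank 5 at 72 h, at 71.9 CPM per kilobase.

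Gstp1 (ENSMUSG00000060803), the pi class transferase, had 23.8, 22.5 and 10.4 CPM in the 72 h libraries, against 34.2, 28.4 and 34.2 CPM in the 0 h libraries. All 72 h libraries lay below all 0 h libraries, and the log2 change of −0.77 ± 0.28 (SE, adjusted p = 0.057) just missed the threshold. It was called without 72 h replicate 3, at −0.47 ± 0.18 (SE, adjusted p = 0.048), without 72 h replicate 1 (−0.97, adjusted p = 0.045), and with upper-quartile scaling, no filter, DESeq2 or limma voom. Gstp1 shares 33.7% of its words with Gstp2 and a pseudogene. The microsomal transferases were not called. Mgst1 was at 22.9 ± 11.7 CPM at 72 h, against 29.5 ± 3.07 CPM at 0 h (log2 change −0.37 ± 0.31 SE, adjusted p = 0.38), and it was called lower without 72 h replicate 2 (−0.87, adjusted p = 0.0097). Mgst3 was at 4.81 ± 3.73 CPM at 72 h, against 1.85 ± 0.949 CPM at 0 h (log2 change 1.37 ± 0.76 SE, adjusted p = 0.19), and it was called higher without 72 h replicate 1 (1.87, adjusted p = 0.032).

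For 2 transferases the value at 72 h rested on 1 library. Gsto1, the omega class enzyme, had 16.6, 37.7 and 843 CPM in the 72 h libraries, against 16.3, 8.47 and 17.1 CPM in the 0 h libraries. The 72 h replicate 3 was far above every other library, and the remaining values overlapped. Its log2 change was 4.42 ± 1.90 (SE, adjusted p = 0.15) over all libraries and 0.97 ± 0.38 (SE, adjusted p = 0.073) without replicate 3. Gsta4, an alpha class enzyme with high activity towards the lipid peroxidation product 4-hydroxynonenal, had 18.2, 21.3 and 322 CPM in the 72 h libraries, against 50.9, 41.6 and 53.9 CPM in the 0 h libraries. The 72 h replicate 3 was the highest of all and the 2 other 72 h libraries were the lowest. The log2 change was 1.30 ± 1.34 (SE, adjusted p = 0.51) over all libraries, and without replicate 3 it turned round, at −1.30 ± 0.17 (SE, adjusted p = 3.9e-05).

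The library that decided these values was the one with the keratins. Over the 40 genes, 72 h replicate 3 lay more than 2-fold above both other 72 h libraries for 3 genes (Gsto1, Gsta4 and Txnip) and more than 2-fold below both for 4 (Gpx3, Sod3, Slc7a11 and Gstp1). These are 7.50% and 10% of the genes, and over all tested genes the shares were 6.49% and 7.74%. The keratin and surface markers were led in that library by Krt15 with 17640 counts, Krt5 with 9056 and Krt4 with 5370, whereas 72 h replicate 1 had 25, 6 and 7 counts of these genes. The part of these transcripts in the values of the 7 genes was not tested. Without the library, Gpx3 and Sod3 were called higher and Slc7a11, Gsta4 and Gstp1 lower, and no call was lost.

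**Figure D3:**
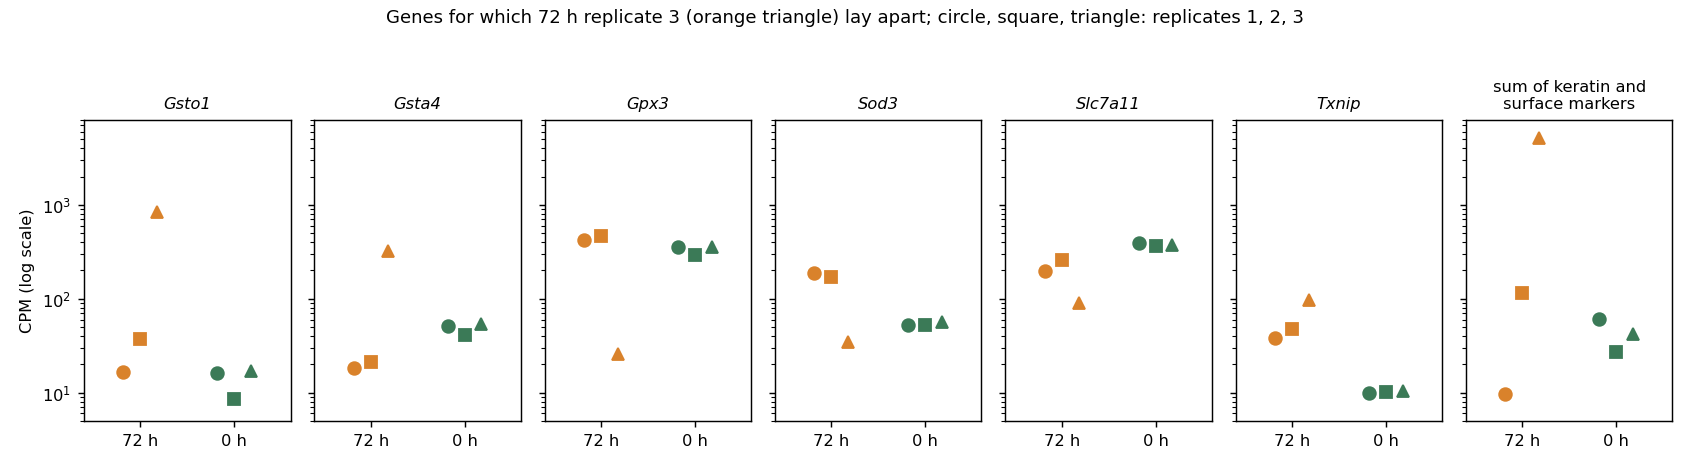
Level in CPM on a log scale of 6 genes, and of the summed keratin and surface epithelium markers at the right, in the 3 libraries at 72 h (left, orange) and the 3 at 0 h (right, green) of each panel. The triangle of 72 h replicate 3 lies above its fellows for Gsto1 (843 CPM), Gsta4 (322 CPM), Txnip and the marker sum (5193 CPM), and below them for Gpx3 (25.9 CPM), Sod3 and Slc7a11.

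Both metallothioneins, small cysteine-rich proteins that bind zinc and copper and can scavenge radicals, rose. Mt2 (ENSMUSG00000031762) had 10.9, 15.2 and 13.8 CPM in the 72 h libraries, against 0.605, 0.508 and 0.552 CPM in the 0 h libraries. At 0 h these were 7, 6 and 7 counts, so that the size of the change rests on few counts, and the log2 change was 4.55 ± 0.40 (SE, adjusted p = 1.9e-05), the largest called rise of the 40 genes. These 0 h counts lay under the minimum count of 10 of the filter. Mt2 could therefore pass only through the 72 h libraries, and its direction was fixed beforehand. Mt1 (ENSMUSG00000031765) had 27.1, 28.1 and 42.3 CPM in the 72 h libraries, against 4.76, 3.64 and 5.52 CPM in the 0 h libraries. No 72 h library came near the 0 h libraries, and the log2 change was 2.80 ± 0.27 (SE, adjusted p = 3.8e-05). The ratio of Mt2 to Mt1 counts was 0.402, 0.543 and 0.327 at 72 h and 0.127, 0.140 and 0.100 at 0 h. An annotated antisense RNA covers 73.5% of the exon bases of Mt2 and had 2 counts over all 6 libraries.

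The genes lie side by side on chromosome 8 and moved together, and their RefSeq windows are printed for the metal response element that MTF1 binds. The letters searched were TGCNCNC on both strands, which are looser than the full consensus and were present in 51.0% of all windows. The Mt1 window (chr8:94178839-94179138, GRCm38.p6, + strand) held 3 matches, and 7.10% of all windows held at least as many. The Mt2 window (chr8:94172368-94172667, GRCm38.p6, + strand) held 6, a number reached by 0.225% of all windows. Capitals mark the matches on either strand. The Mt2 window also holds the antioxidant response element match shown earlier, which contains the letters of an AP-1 site.
Mt1 window: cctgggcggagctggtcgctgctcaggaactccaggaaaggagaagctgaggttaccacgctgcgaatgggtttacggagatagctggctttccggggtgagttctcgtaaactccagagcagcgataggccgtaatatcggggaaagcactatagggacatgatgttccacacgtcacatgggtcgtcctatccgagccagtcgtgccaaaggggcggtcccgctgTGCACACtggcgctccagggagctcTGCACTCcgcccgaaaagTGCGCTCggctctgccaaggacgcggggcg
Mt2 window: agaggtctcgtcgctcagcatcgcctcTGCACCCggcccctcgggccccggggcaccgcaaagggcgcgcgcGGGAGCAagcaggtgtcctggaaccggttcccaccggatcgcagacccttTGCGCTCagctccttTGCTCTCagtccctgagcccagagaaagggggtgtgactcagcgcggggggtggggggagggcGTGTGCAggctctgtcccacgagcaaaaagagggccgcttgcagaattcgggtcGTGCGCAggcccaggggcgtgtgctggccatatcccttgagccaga

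Ratios within a library do not depend on how libraries are scaled, and 11 pairs were compared. In 9 the groups did not overlap, each with an exact two-sided permutation p of 0.1, the smallest that 3 libraries against 3 allow. The share over other gene pairs was not computed, and for single genes 53.5% of all those tested did not overlap. In Gsr to Gss and Gpx1 to Gpx4 the genes were called in opposite directions, so that their separation repeats those calls. In Sod2 to Sod1 (exact permutation p = 0.9) and Txnrd1 to Txn1 (exact permutation p = 0.5) they overlapped. The ratio of Txnip to Txn1 was 0.838, 1.19 and 2.68 at 72 h and 0.542, 0.540 and 0.448 at 0 h. That of Gstm1 to Gstp1 was 3.27, 7.22 and 7.42 at 72 h and 25.4, 26.0 and 24.6 at 0 h.

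**Figure D4:**
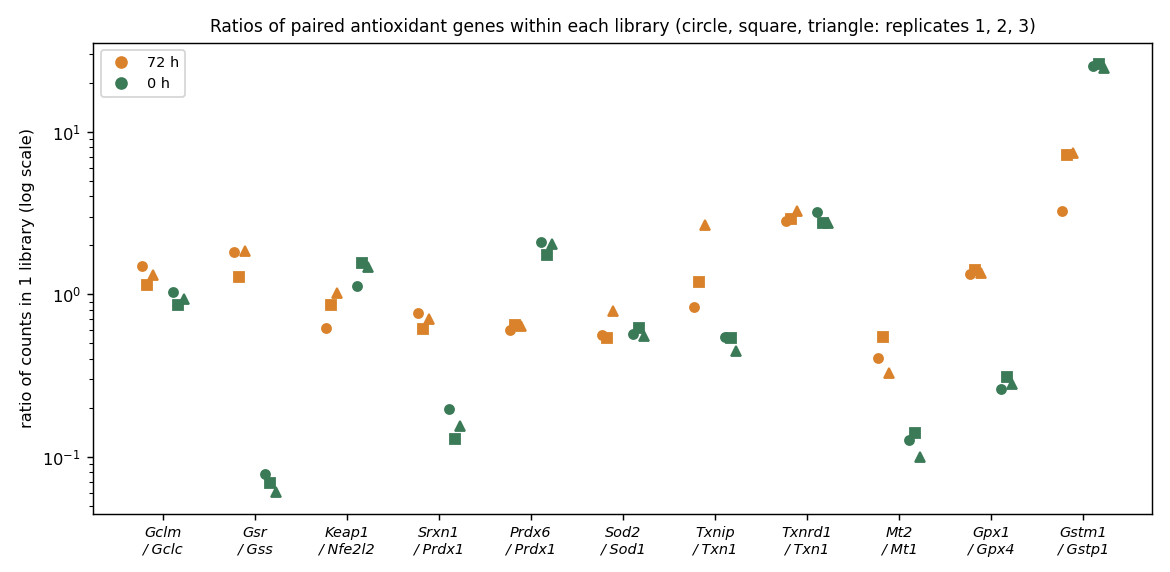
Ratio of the counts of 2 genes in the same library, on a log scale, for 11 pairs along the horizontal axis, in the 3 libraries at 72 h (orange, left of each pair) and the 3 at 0 h (green, right). The widest gap is that of Gsr to Gss, with 1.27 to 1.85 at 72 h and 0.0603 to 0.0783 at 0 h, while Sod2 to Sod1 and Txnrd1 to Txn1 overlap.

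Genes that work beside the 40 were taken from 9 lists. The shares of all tested genes called higher and lower, and their median log2 change of −0.02, are the values to read these lists against. Among partners of NRF2 and genes of its degradation, 5 of 11 tested were higher and 2 lower (median log2 change 0.14). Bach1, a repressor that competes with NRF2 for the same elements, was at 58.6 ± 5.22 CPM at 72 h, against 13.7 ± 3.48 CPM at 0 h (log2 change 2.09 ± 0.20 SE, adjusted p = 3.7e-05), and Sqstm1, an autophagy receptor that binds KEAP1, had a log2 change of 0.69 ± 0.10 (SE, adjusted p = 3.9e-04). Btrc, a ubiquitin ligase adaptor (−0.75 ± 0.15 SE, adjusted p = 0.0030), and the small MAF gene Mafg (−0.45 ± 0.10 SE, adjusted p = 0.0046) were lower. The number of higher genes was 3 with upper-quartile scaling, with library size alone, and with any single library except 72 h replicate 3 left out. Among iron, heme and other NRF2 target genes, 4 of 17 were higher and 4 lower (median log2 change −0.12), but the number of lower genes was 7 without 72 h replicate 3 and 1 or 2 when any other library was left out. Abcc1, an exporter of glutathione conjugates, was higher (1.40 ± 0.14 SE, adjusted p = 3.8e-05), and so was the aldo-keto reductase gene Akr1b8, with 255 counts at 72 h and 2 at 0 h, both in 0 h replicate 3, a ratio of 180.5 (95% exact counting interval 49.4 to 1498). Akr1b8 could pass the filter only through the 72 h libraries, so that its direction was fixed beforehand. Tfrc, the transferrin receptor, was lower (−1.16 ± 0.12 SE, adjusted p = 6.9e-05), as was the carbonyl reductase gene Cbr1 (−0.82 ± 0.24 SE, adjusted p = 0.023), whose call was lost without 72 h replicate 1 or 2 or 0 h replicate 1 or 3 (adjusted p up to 0.099).

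In the list of NADPH supply, 4 of 13 were higher and 4 lower (median log2 change 0.02). Tkt, the transketolase of the pentose phosphate pathway, was at 471 ± 71.3 CPM at 72 h, against 1971 ± 26.6 CPM at 0 h (log2 change −2.06 ± 0.12 SE, adjusted p = 1.4e-06), and mitochondrial Idh2 was lower too (−1.16 ± 0.16 SE, adjusted p = 3.4e-04). Pgd, which makes NADPH in the same pathway, was higher (1.20 ± 0.18 SE, adjusted p = 5.0e-04), as was H6pd, an enzyme of the endoplasmic reticulum that makes NADPH there (0.90 ± 0.16 SE, adjusted p = 0.0017). Of 20 tested glutathione enzymes outside the 40, none was higher and 9 were lower (median log2 change −0.98). At an unadjusted p under 0.05, 2 were higher (Gpx7 and Esd, named after their values were seen), and 1 or 2 were called higher by DESeq2, limma voom, with no filter, or with 0 h replicate 2 or a single 72 h library left out. Those lower included Oplah, which opens oxoproline in the glutathione cycle (−1.98 ± 0.19 SE, adjusted p = 4.0e-05), and the glyoxalase gene Glo1 (−0.96 ± 0.15 SE, adjusted p = 6.9e-04). Also counted as lower were Gstt1, Gstm7 and Gstk1, named after their values were seen. With 0, 4 and 8 counts in 72 h replicate 3, they could not pass the filter through the 72 h libraries alone. In amino acid supply, 1 of 10 was higher and 3 were lower (median log2 change −0.73). The lower ones were led by Slc3a2, the partner chain of xCT, at 153 ± 41.6 CPM at 72 h, against 388 ± 12.1 CPM at 0 h (log2 change −1.34 ± 0.17 SE, adjusted p = 2.3e-04), and the glutamate transporter gene Slc1a2 (−2.59 ± 0.31 SE, adjusted p = 1.6e-04), and 5 were lower without 72 h replicate 3. The 1 higher gene was the neutral amino acid transporter Slc1a5 (1.44 ± 0.42 SE, adjusted p = 0.022), whose call was lost without 72 h replicate 1 or 0 h replicate 2 or 3 (adjusted p up to 0.074).

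Of 19 further thioredoxin, glutaredoxin and sulfoxide genes, 3 were higher and 4 lower (median log2 change 0.04). Park7, the redox-sensitive chaperone DJ-1, was lower (−1.88 ± 0.11 SE, adjusted p = 1.4e-06), and so was Sesn1, a sestrin (−2.01 ± 0.15 SE, adjusted p = 7.5e-06). Arrdc4, an arrestin domain gene of the same family as Txnip, had 26.2, 19.3 and 79.6 CPM in the 72 h libraries, against 2.16, 6.69 and 6.70 CPM in the 0 h libraries. It was higher in every 72 h library, with replicate 3 far above the 2 others (3.00 ± 0.73 SE, adjusted p = 0.023), and its log2 change was 2.14 without that library. Also higher was Mlxip, a glucose-responsive transcription factor (0.86 ± 0.16 SE, adjusted p = 0.0022). The number of higher genes was 1 without any one 0 h library, and the call of Arrdc4 was lost there, with no filter and with limma voom (adjusted p up to 0.085). In the selenoprotein list 3 of 13 were higher and 4 lower (median log2 change −0.27). Selenon (0.97 ± 0.15 SE, adjusted p = 6.8e-04) and Selenot (0.43 ± 0.11 SE, adjusted p = 0.011), both of the endoplasmic reticulum, were higher, while the selenium carrier Selenop (−1.68 ± 0.18 SE, adjusted p = 8.0e-05) and Eefsec, the elongation factor for selenocysteine (−1.09 ± 0.19 SE, adjusted p = 0.0017), were lower. Only 1 was higher without 0 h replicate 1 or 3, when Selenot lost its call (adjusted p up to 0.059). In metal handling (median log2 change 0.10) 4 of 10 were higher and none lower, also at an unadjusted p under 0.05 and by DESeq2 and limma voom (2 higher without any one 0 h library), among them the zinc transporters Slc39a1 (1.16 ± 0.12 SE, adjusted p = 6.3e-05) and Slc39a14 (1.84 ± 0.31 SE, adjusted p = 0.0012). Mtf1, the metal sensor of the metallothionein genes, had 27.9, 17.9 and 17.4 CPM in the 72 h libraries, against 26.0, 21.4 and 18.5 CPM in the 0 h libraries, which overlapped (log2 change −0.06 ± 0.24 SE, adjusted p = 0.87).

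Among genes that make superoxide, 7 of 9 tested were higher and 1 was lower (median log2 change 2.26). Ncf1, a cytosolic subunit of the phagocyte NADPH oxidase, was at 36.5 ± 7.57 CPM at 72 h, against 1.09 ± 0.769 CPM at 0 h (log2 change 5.04 ± 0.43 SE, adjusted p = 1.6e-05, and 5.80 without 0 h replicate 3). It had 8, 7 and 25 counts at 0 h and could not pass the filter through the 0 h libraries alone. The direction of Ncf1 was thus largely fixed beforehand. Xdh, xanthine dehydrogenase, had a log2 change of 3.78 ± 0.40 (SE, adjusted p = 9.8e-05). Its 72 h libraries had 30.7, 26.0 and 65.4 CPM, with replicate 3 the highest, and over the alternatives its log2 change ranged from 3.27 to 4.01. The membrane subunits Cybb (2.26 ± 0.45 SE, adjusted p = 0.0031) and Cyba (2.26 ± 0.53 SE, adjusted p = 0.0077) were higher, as were Ncf4 and Rac2, 4 genes known from phagocytes and named here after their values were seen, in libraries in which 10 of 14 tested macrophage and monocyte markers were higher too. The part of those cells in these values was not tested.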

How the data were processed

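Per the labels' protocols, RNA came from an RNeasy Mini kit and was sequenced as Takara SMARTer Stranded Pico v2 libraries. Raw counts per Ensembl gene are what the authors deposited. The submitters' processing notes name HISAT2, HTSeq, edgeR and GRCm39; versions, the annotation and the strand setting of counting are not given in the sources used here. The 5 lines of reads in no gene, 48.0% to 51.7% of a library's total at 72 h and 41.9% to 45.2% at 0 h, were left out. Symbols, exon lengths and overlaps came from GENCODE M21 (GRCm38), which matched 51947 of 56940 IDs.

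Counts were tested with edgeR 4.0.16 in R 4.3.3 (TMM, filterByExpr with a minimum count of 10 and a minimum total of 15, robust quasi-likelihood fit, Benjamini-Hochberg adjustment over 15407 genes, threshold 0.05), 3 libraries against 3. The error of a log2 change is its size over the square root of F. The fit was tested on simulated data. The 15 alternatives covered scaling, filters, DESeq2 1.42.0, limma 3.58.1 voom, the replicate number and each library left out. Words of 50 bases and promoter letters were searched on GENCODE and RefSeq sequence; 7 of the 40 genes had no window in the table used.

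Given in full by rule were 22 members chosen by name and members called with at least a 2-fold change; of each pathway list, up to 2 called genes a direction by smallest p. The members and all lists were chosen with earlier results of these data known. One gene that this rule names is not reported here.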

Additional observations from a re-analysis of the deposited data

How the results depend on the processing

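Of the 21 called genes, 20 were called under all 15 alternatives, and Prdx5 lost its call without 72 h replicate 1 or without 0 h replicate 1 or 3. Of the 19 genes not called, 10 were called under none. Among these 10, Glrx and Gsto1 could be read under only 14 alternatives. Glrx did not pass the stricter filter, and DESeq2 gave no adjusted p for Gsto1. Over the alternatives the number of higher genes was 9 to 11 and of lower genes 11 to 15 among the 40, and over all tested genes 2511 to 3646 were higher and 1877 to 3265 lower. Leaving out 1 library each gave 9 to 11 higher and 11 to 15 lower among the 40. Sign changes that came with a call arose without 72 h replicate 3: Gpx3 had 0.41 (adjusted p = 0.00488) and Gsta4 −1.30 (adjusted p = 3.87e-05), and over all 6 libraries left out in turn the log2 change ranged from −0.58 to 0.41 for Gpx3 and from −1.30 to 1.80 for Gsta4. Uncalled changes of sign were those of Prdx1 without 72 h replicate 3 (0.07), of G6pdx without 72 h replicate 1 (0.06) and, close to 0, without 0 h replicate 1, and of Gsta4 with the replicate block (−0.03). Upper-quartile scaling moved the median of all genes by −0.09 on the log2 scale and gave 9 higher and 13 lower among the 40.

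The replicate numbers were checked for pairing. Deviations of same-numbered libraries from their group means correlated at −0.04, 0.06 and −0.01 over genes. The 72 h replicates 1 and 3 correlated best with a library of another number, and 72 h replicate 2 with 0 h replicate 2. Such correlations cannot tell whether same-numbered pools hold eyes of the same animals, which the sources do not say. The main fit was therefore left unpaired, without a verdict on pairing. With the replicate number as a block, 9 of the 40 genes were higher and 14 lower, with Nqo1 and Gstp1 added, and 2921 of all genes were higher and 2507 lower. Genes with few counts, such as Nqo1, Glrx and Mt2 at 0 h, carry the widest counting error; the intervals cover counting error only.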
